A study of Mus musculus with 12 samples.

Results

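Glucose is taken up, stored as glycogen and broken down to pyruvate and lactate by enzymes that mostly exist as several isoforms, each encoded by its own gene. The list examined here holds 38 mouse genes of glucose transport, glycogen metabolism, glycolysis and the pyruvate branch. It sets 7 isoforms known from skeletal muscle (Pygm, Eno3, Pgam2, Pfkm, Phkg1, Phka1 and Gys1) against the 31 others. Each gene was represented by its brightest probe set with a single gene symbol, by the mean over all 12 arrays. This gave values for 35 of the 38 members among 18193 genes in all, including all 7 muscle isoforms and 28 of the others. No probe set with that symbol alone was used for Gpi1, Gapdh or Eno1, which were not tested.

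Affymetrix mouse arrays were made from tongues of C57BL/6J mouse embryos at embryonic day 13.5. The 6 control samples were Myf5-Cre;Smad4flox/+ and the 6 mutant samples Myf5-Cre;Smad4flox/flox. All 12 therefore carried Myf5-Cre, which makes the Cre recombinase where the muscle determination gene Myf5 is active, and the controls were heterozygous for the floxed allele of Smad4. Smad4 carries the signals of both TGF-β and BMP receptors to the nucleus. By design the Cre driver limits the deletion to cells of Myf5 history, mainly muscle progenitors, so other tongue cells should keep Smad4. Where it took place in these tongues was not measured. Tongue tissue of many cell types was measured, so fewer cells of a type and less RNA per cell cannot be told apart in these values. The labels call the samples biological replicates and give neither litter nor the number of tongues per sample.

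As skeletal muscle forms, myoblasts replace or supplement the widely expressed enzymes with muscle isoforms. Glycogen phosphorylase releases glucose units from glycogen, and phosphorylase kinase, a complex of α, β, γ and calmodulin subunits, activates it. Phosphofructokinase commits sugar to glycolysis. Phosphoglycerate mutase and enolase act as dimers late in the pathway, and in muscle the dimers contain the products of Pgam2 and Eno3.

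Values are log2 signals from the authors' RMA summary. A pair of values gives the mean ± SD of the controls and then of the mutants (n = 6 arrays per genotype), and a difference is mutant minus control on this scale, ± SE where given. Adjusted p values are limma's, corrected by Benjamini and Hochberg's method for the 18193 genes tested. A gene is said to have risen or fallen where that value was below 0.05. Signals of different probe sets are not on a common scale, so levels are not ranked between genes. Array medians lay between 6.09 and 6.17. Smad4 read 12.29 ± 0.07 in controls and 12.14 ± 0.27 in mutants (adjusted p = 0.427), from 12.16 to 12.35 on control arrays and from 11.58 (mutant 1) to 12.30 on mutant arrays. Smad4 had 3 probe sets with its symbol alone, and only the brightest is given here. Where that probe set lies relative to the deleted part was not examined, so this does not check the labels. On the first principal component mutants 1 and 2 scored 24.7 and 20.3, the other mutants 2.90 to 14.8 and all controls below 0. Mutants 4 and 6 gave intermediate signal for the X-inactivation gene Xist (8.73 and 7.88) together with Y-linked genes, and control 3 gave high Xist with a Y-linked mean of 5.31. For members and isoform pairs, calls that were lost without mutants 1 and 2, or without control 3, mutant 4 and mutant 6, are given with those values. For the further lists of pathway and hypoxia response genes only counts in those settings are given, and for the cell type markers neither.

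Among the enzymes, the largest falls were those of the muscle isoforms Pygm, Pgam2 and Eno3. Of the 35 measured members, 6 fell and 3 rose, where 4.8% of all genes fell, 6.3% rose and 11.1% did either. The median difference of the members was -0.02, beside 0.01 over all genes. Of the 7 muscle isoforms 3 fell and none rose, at an unadjusted p below 0.05 as well as by limma's adjusted p, with a median of -0.12. Of the 28 other isoforms 3 fell and 3 rose, with a median of 0.02. Groups did not overlap for 4 members that were lower in all mutants and 1 that was higher, against 2.9% and 3.4% of all genes. Leaving out the dim Phkg1 moved the median of the muscle isoforms to -0.55, the midpoint between the 3 that fell and the 3 that did not pass.

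**Figure D1:**
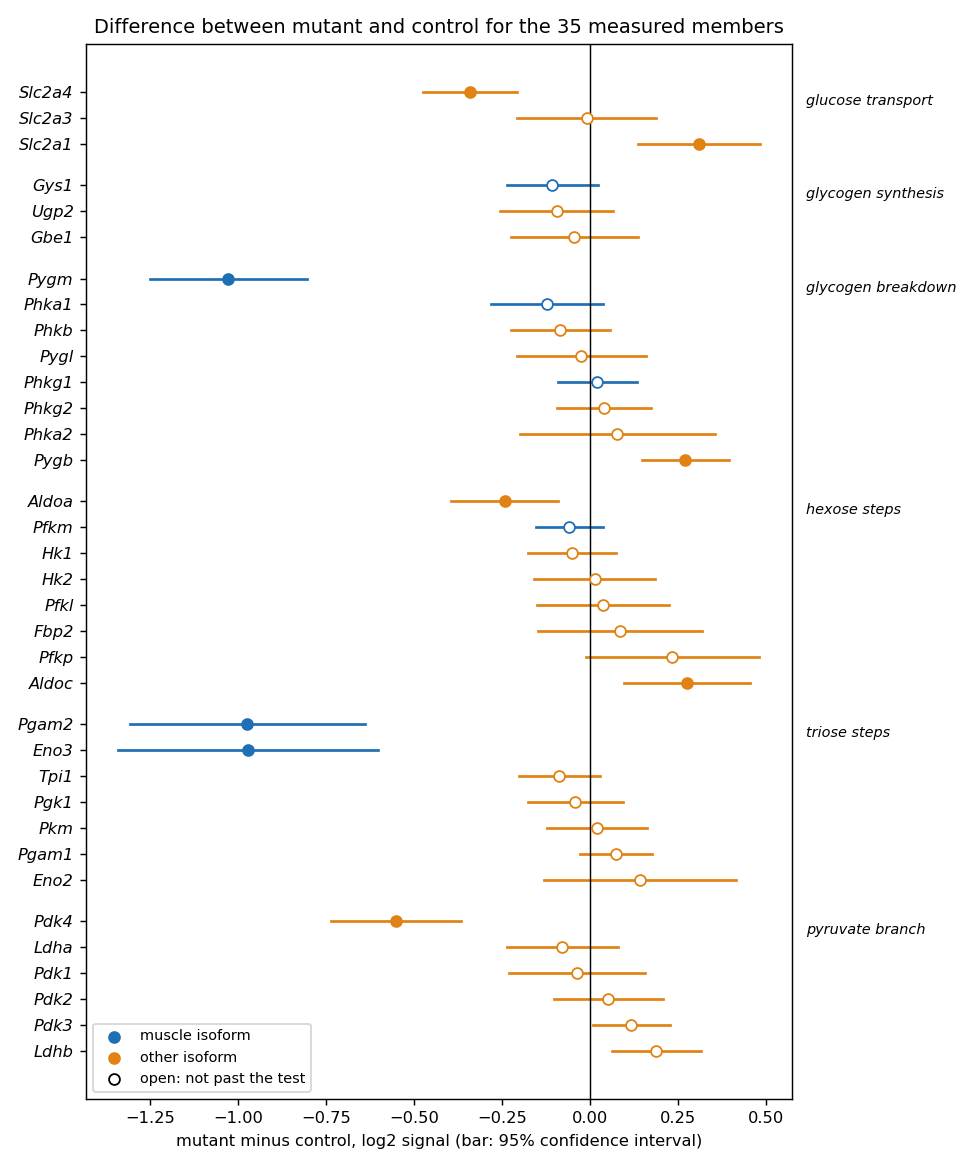
Difference between mutant and control in log2 signal for each of the 35 measured members (point) with its 95% confidence interval (bar), grouped by role; blue marks muscle isoforms, orange the others, and filled points passed the test. Pygm, Pgam2 and Eno3 stand near -1, while the other 4 muscle isoforms lie between -0.12 and 0.02.

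The sequences before the start sites are shown for the 3 muscle isoforms that fell together and for the paralogues Pygb and Pgam1, which did not fall. They are the 250 bases upstream of the RefSeq gene start (build GRCm38.p6), 5′ to 3′ on the strand of the gene. Capitals mark matches to CAGCTG, an E-box that myogenic bHLH factors can bind, to the MEF2 consensus by its name, and to ACGTG, the core of the hypoxia response element (CACGT where it lies on the other strand).
Pygm, chr19:6384158-6384407, + strand: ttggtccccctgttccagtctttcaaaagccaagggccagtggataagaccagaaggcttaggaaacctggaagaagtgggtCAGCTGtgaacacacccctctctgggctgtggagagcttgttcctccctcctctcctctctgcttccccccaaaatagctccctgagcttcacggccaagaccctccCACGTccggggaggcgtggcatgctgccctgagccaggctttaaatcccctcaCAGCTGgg
Pgam2, chr11:5803797-5804046, - strand: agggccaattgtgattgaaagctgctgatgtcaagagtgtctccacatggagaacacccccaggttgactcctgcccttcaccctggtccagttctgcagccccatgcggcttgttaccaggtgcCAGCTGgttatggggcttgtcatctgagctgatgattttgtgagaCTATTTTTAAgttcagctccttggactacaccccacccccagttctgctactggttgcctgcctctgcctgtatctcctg
Eno3, chr11:70656926-70657175, + strand: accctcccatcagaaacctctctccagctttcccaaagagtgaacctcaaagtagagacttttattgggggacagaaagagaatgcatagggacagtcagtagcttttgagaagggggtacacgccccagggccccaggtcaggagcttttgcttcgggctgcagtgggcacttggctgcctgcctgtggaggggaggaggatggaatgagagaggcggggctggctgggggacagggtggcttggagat
Pygb, chr2:150786546-150786795, + strand: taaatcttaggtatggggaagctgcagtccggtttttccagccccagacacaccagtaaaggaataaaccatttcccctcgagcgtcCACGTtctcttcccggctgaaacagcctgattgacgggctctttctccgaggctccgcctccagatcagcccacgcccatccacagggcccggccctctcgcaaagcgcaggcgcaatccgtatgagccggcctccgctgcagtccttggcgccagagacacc
Pgam1, chr19:41911621-41911870, + strand: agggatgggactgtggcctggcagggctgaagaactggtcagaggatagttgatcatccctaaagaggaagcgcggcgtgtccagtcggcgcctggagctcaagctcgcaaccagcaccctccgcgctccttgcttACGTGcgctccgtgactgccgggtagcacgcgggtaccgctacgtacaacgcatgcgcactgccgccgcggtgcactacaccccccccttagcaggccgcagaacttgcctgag
The Pygm window held CAGCTG at 168 to 163 and at 8 to 3 bases before the start, and ACGTG on the other strand at 61 to 57. The Pgam2 window held CAGCTG at 125 to 120 and the MEF2 consensus at 80 to 71 bases before the start. None of the 3 motifs was found in the 250 bases of Eno3, which says only that these letters are not in this window. Pygb and Pgam1 each held ACGTG alone. Both strands were searched, the motifs do not overlap in these windows, and a match is a description of the letters and not a binding site. Over the same 250 bases before the start in 32851 windows of 27025 genes, CAGCTG was found in 13.0%, the MEF2 consensus in 2.92% and ACGTG in 16.6%. RefSeq windows were matched for 36 of the 38 members, which had 50 windows in all. CAGCTG was found in 9 of these, the MEF2 consensus in 1, that of Pgam2, and ACGTG in 17. Among the 10 windows of the 7 muscle isoforms, CAGCTG was found in those of Pygm, Pgam2, Gys1 and Phka1, of which the last 2 did not pass the test.

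Glycogen breakdown showed the clearest split between isoforms. Pygm, the glycogen phosphorylase of muscle, fell from 8.73 ± 0.23 to 7.70 ± 0.17, a 2.04-fold reduction (difference -1.03 ± 0.10, adjusted p = 0.000231). Control arrays read 8.31 at the lowest, 8.79 at the median and 8.99 at the highest, and mutant arrays 7.51, 7.70 and 7.95. All 6 mutants lay below all 6 controls.

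Pygb, the brain-type phosphorylase that many tissues make, went the other way. It rose from 10.69 ± 0.09 to 10.96 ± 0.10 (0.27 ± 0.06, adjusted p = 0.00827). The lowest mutant array (10.81) was just above the highest control (10.80), so the groups did not overlap but nearly touched. The call was lost without mutants 1 and 2 (0.22, adjusted p = 0.0648) and without control 3, mutant 4 and mutant 6 (0.25, 0.0847). Pygl, the liver-type phosphorylase, read 8.24 ± 0.18 and 8.21 ± 0.14 (-0.02, adjusted p = 0.899), with a 95% confidence interval from -0.21 to 0.16.

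No subunit of phosphorylase kinase passed. The α subunit of muscle, Phka1, read 7.996 ± 0.076 and 7.874 ± 0.175 (-0.12, 95% interval -0.28 to 0.04), and its other 2 probe sets differed by -0.10 and -0.22. The liver-type α subunit Phka2 differed by 0.08 (-0.20 to 0.35). The β subunit Phkb differed by -0.08 (-0.22 to 0.06). The γ subunit carries the catalytic site. Its muscle form Phkg1 gave 3.41 ± 0.09 and 3.43 ± 0.08, far under the median probe set signal (6.13), while the testis and liver form Phkg2 differed by 0.04 (-0.10 to 0.17).

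The enzymes that build glycogen did not pass either, at the adjusted or the unadjusted p. Gys1, the glycogen synthase of muscle and most other tissues, read 9.33 ± 0.12 and 9.23 ± 0.08 (-0.11, 95% interval -0.24 to 0.02), and 3 of 6 mutants lay below every control. A dimmer Gys1 probe set stood at -0.16 (adjusted p = 0.301 with every probe set tested). Ugp2, which makes UDP-glucose, differed by -0.09 (-0.26 to 0.07) and Gbe1, the branching enzyme, by -0.05 (-0.23 to 0.14). The 5 probe sets of Ugp2 all lay below 0, from -0.20 to -0.09, and the one at -0.20 passed over all probe sets (adjusted p = 0.0436).

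Late glycolysis held the other strong falls. Pgam2, the muscle phosphoglycerate mutase, fell from 12.10 ± 0.11 to 11.13 ± 0.42, 1.96-fold (-0.97 ± 0.16, adjusted p = 0.00147). Controls read 11.91, 12.12 and 12.24 at the lowest, median and highest, and mutants 10.51, 11.09 and 11.71. The groups did not overlap, but mutants spread over more than 1 log2 unit, with mutant 1 lowest and mutant 5 highest. Without mutants 1 and 2 the difference was -0.77 (adjusted p = 0.00417).

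Eno3, the β-enolase of muscle, fell from 11.72 ± 0.43 to 10.75 ± 0.22 (-0.97 ± 0.17, 1.96-fold, adjusted p = 0.00278). Controls read 10.88, 11.87 and 12.01 at the lowest, median and highest, and mutants 10.52, 10.71 and 11.16. The lowest control was control 1, which lay among the mutants, while the next control stood at 11.73, above every mutant. Without control 1 the difference was -1.14 and without mutants 1 and 2 it was -1.02 (adjusted p = 0.00897).

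Their paralogues and the shared enzymes of the triose steps did not pass. Pgam1, the widely expressed mutase, read 11.85 ± 0.07 and 11.92 ± 0.07 (0.07, 95% interval -0.03 to 0.18). Eno2, the neuronal γ-enolase, was dim at 5.40 ± 0.31 and 5.54 ± 0.17 (0.14, -0.13 to 0.42). Tpi1 and Pgk1, which have no second isoform on the list, differed by -0.09 (-0.20 to 0.03) and -0.04 (-0.18 to 0.09). Pkm, pyruvate kinase of muscle and most embryonic tissues, was at 12.22 ± 0.09 and 12.24 ± 0.14 (0.02, -0.12 to 0.16). Gapdh, which acts between Tpi1 and Pgk1, has 3 control probe sets on the array that were kept out of the test. They read from 14.11 to 14.34 in controls and from 13.93 to 14.25 in mutants, near the top of the scale (highest value 15.09), with differences of -0.13, -0.15 and -0.14. With control probe sets kept in the fit, an alternative added after the data were seen, Gapdh did not pass (-0.13, adjusted p = 0.0905).

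**Figure D2:**
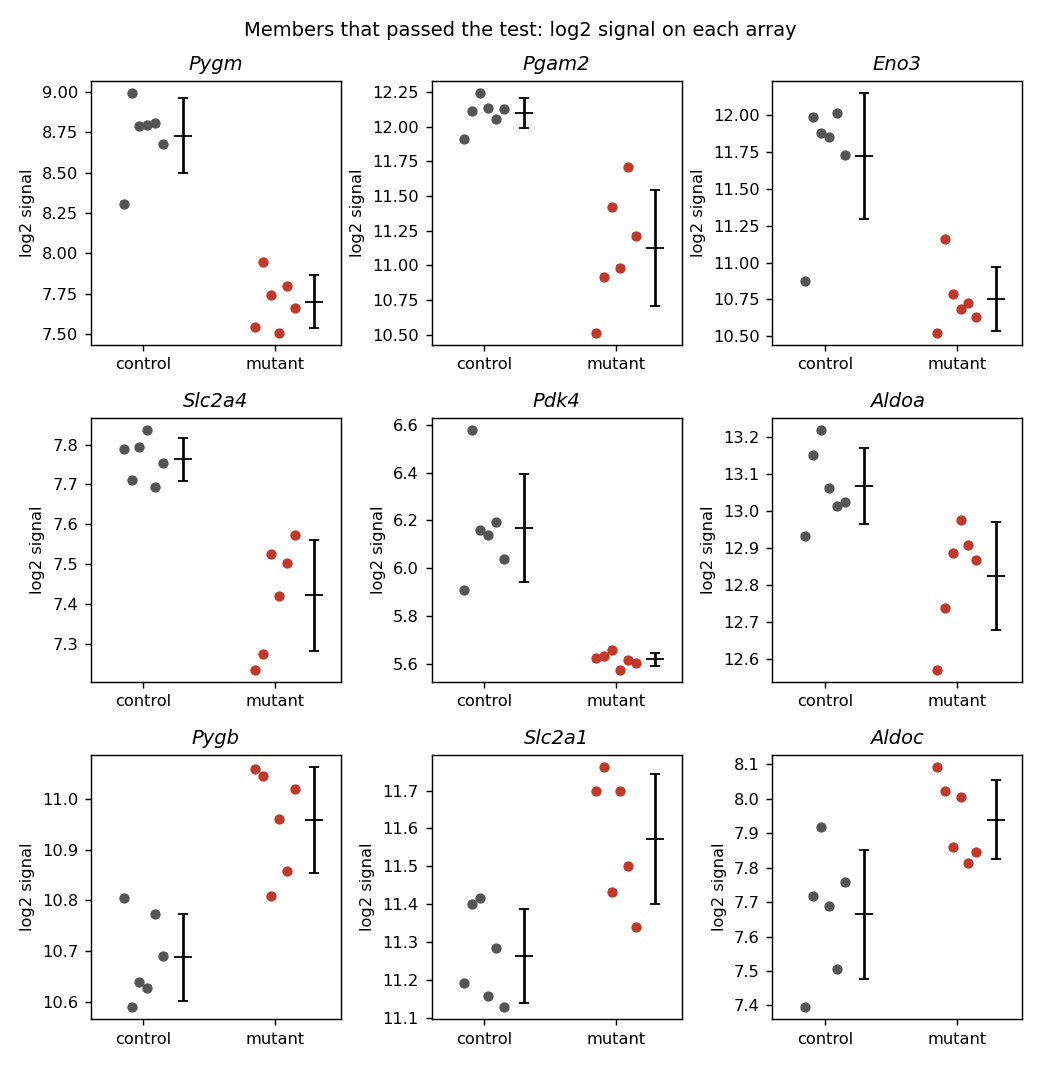
Log2 signal on each of the 6 control and 6 mutant arrays (points) for the 9 members that passed the test, with mean and SD at the right of each group (bar); each panel has its own axis. Pygm, Pgam2, Slc2a4 and Pdk4 are below all controls in all mutants, Pygb is above, and Eno3 overlaps only through control 1.

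The steps from glucose to triose phosphate showed smaller differences. Hexokinases trap glucose in the cell. Hk1 differed by -0.05 (95% interval -0.18 to 0.07) and Hk2, the form rich in muscle and in insulin-sensitive tissue, by 0.01 (-0.16 to 0.19). A dimmer Hk1 probe set stood at -0.18 (adjusted p = 0.146 with every probe set tested). Pfkm, the muscle phosphofructokinase, read 10.80 ± 0.04 and 10.74 ± 0.08, and 4 of 6 mutants lay below every control. Its difference of -0.06 had an interval from -0.15 to 0.04, so a fall of the size seen for Pygm lies outside it. Pfkl, the liver form, differed by 0.04 (-0.15 to 0.23) and Pfkp, the platelet form, by 0.23 (-0.01 to 0.48, adjusted p = 0.227). Fbp2, the muscle fructose bisphosphatase, was dim, at 5.44 ± 0.22 and 5.53 ± 0.19.

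Aldolases split fructose bisphosphate, and both measured forms passed close to the threshold. Aldoa, the aldolase of muscle and most embryonic tissues, fell from 13.07 ± 0.10 to 12.83 ± 0.15 (-0.24 ± 0.07, adjusted p = 0.0410), and 5 of 6 mutants were below every control. Mutant 1 was lowest at 12.57. The call was lost when any of controls 2 to 6 or mutants 1, 2, 3 or 6 was left out (differences -0.25 to -0.19, adjusted p = 0.0526 to 0.0917), and without mutants 1 and 2 the difference was -0.16 (0.188). It was also lost without control 3, mutant 4 and mutant 6 (-0.26, adjusted p = 0.0849) and with array weights (-0.22, 0.0531). The 4 other Aldoa probe sets differed by -0.29 to -0.13. With every probe set tested, those at -0.29 and -0.25 passed (adjusted p = 0.0477 and 0.0484) and the one used did not (0.0568). Aldoc, the aldolase of brain, rose from 7.66 ± 0.19 to 7.94 ± 0.11 (0.28 ± 0.08, adjusted p = 0.0484), with 3 of 6 mutants above every control. The Aldoc call was lost under 16 of 22 alternatives. Averaging both of its probe sets took the difference to 0.13 (adjusted p = 0.226). The call was also lost when any of controls 1, 2, 4, 5 or 6 or mutants 1, 2, 3, 4 or 6 was left out (0.22 to 0.29, adjusted p = 0.0512 to 0.112), without mutants 1 and 2 (0.22, 0.235), without control 3, mutant 4 and mutant 6 (0.33, 0.0628), and with quantile normalisation (0.0598) or arrays centred on their medians (0.0577). A dim second Aldoc probe set, at 3.46 on average, differed by -0.01.

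Glucose transporters changed in opposite directions. Slc2a4 (GLUT4), the insulin-responsive transporter of muscle and fat, fell from 7.76 ± 0.05 to 7.42 ± 0.14 (-0.34 ± 0.06, 1.27-fold, adjusted p = 0.00321). Controls read 7.69, 7.77 and 7.84 at the lowest, median and highest, and mutants 7.23, 7.46 and 7.57, with no overlap. A dimmer Slc2a4 probe set was lower by less and missed the threshold (-0.19, adjusted p = 0.108). Slc2a1 (GLUT1), the basal transporter of embryonic tissue, rose from 11.26 ± 0.12 to 11.57 ± 0.17 (0.31 ± 0.08, 1.24-fold, adjusted p = 0.0247). Controls read 11.13, 11.24 and 11.42, and mutants 11.34, 11.60 and 11.76, so that 5 of 6 mutants were above every control. The other Slc2a1 probe sets differed by 0.35 and 0.33. The Slc2a1 call was lost when control 4, control 6, mutant 1, mutant 2 or mutant 4 was left out (0.27 to 0.29, adjusted p = 0.0505 to 0.0617) and without mutants 1 and 2 (0.23, 0.150). Slc2a3 (GLUT3), known from neurons and placenta, differed by -0.01 (95% interval -0.21 to 0.19), although a dim probe set, at 4.17 on average, fell by 0.29 (adjusted p = 0.0401 with every probe set tested).

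At the branch of pyruvate, Pdk4 was the member that fell. The Pdk kinases switch off pyruvate dehydrogenase, and Pdk4 is induced by fasting and fatty acids in muscle. It went from 6.17 ± 0.22 to 5.62 ± 0.03 (-0.55 ± 0.09, 1.46-fold, adjusted p = 0.00132). Controls read 5.91, 6.15 and 6.58 at the lowest, median and highest, and mutants 5.58, 5.62 and 5.66. The groups did not overlap, and the mutants were nearly alike at a signal under the median of all probe sets. Pdk1, Pdk2 and Pdk3 differed by -0.04, 0.05 and 0.12 and did not pass (adjusted p = 0.854, 0.728 and 0.169). Ldha, the lactate dehydrogenase subunit of muscle, differed by -0.08 (95% interval -0.23 to 0.08). Ldhb, the heart-type subunit, stood at the threshold, at 12.22 ± 0.13 and 12.41 ± 0.06 (0.19 ± 0.06, adjusted p = 0.0551), with 4 of 6 mutants above every control. Of its 3 other probe sets, 2 passed over all probe sets (0.22, adjusted p = 0.0449, and 0.23, 0.0478), and Ldhb passed under 7 alternatives (differences 0.19 to 0.22, adjusted p = 0.0259 to 0.0475), among them the average of its probe sets (0.0341) and the exclusion of control 1 (0.0412) or control 6 (0.0298).

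Muscle isoforms were set against their paralogues within each array, as the difference of both log2 signals relative to its control mean. Of the 9 pairs listed, 8 could be measured, since Eno1 was not tested. In mutants it was lower, at -1.30 ± 0.15 (SE) for Pygm against Pygb, -1.003 ± 0.108 for Pygm against Pygl, -1.11 ± 0.24 for Eno3 against Eno2, and -1.05 ± 0.16 for Pgam2 against Pgam1. In each of these 4 pairs all 6 mutants lay below all 6 controls (exact 2-sided permutation p = 0.00216, the smallest possible, and 0.00433 adjusted over the 8 pairs). Eno3 against Eno2 was the loosest of the 4, since control 1 (-0.73) came close to mutant 2 (-0.78), and Eno2 is dim. A ratio of this kind shows unequal change of the 2 genes, not that either was unchanged.

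The other muscle isoforms did not separate from their paralogues in this way. Pfkm against Pfkp stood at -0.29 ± 0.11 (exact permutation p = 0.0173, adjusted 0.0277), with 5 of 6 mutants below every control. This call was lost without control 1 or any of mutants 1 to 5 (differences -0.30 to -0.22, adjusted exact permutation p = 0.0519 to 0.0589) and without mutants 1 and 2 (-0.25, 0.108). With all probe sets of a gene averaged, Pfkm minus Pfkp was -0.13 (adjusted exact permutation p = 0.0450), and the other 2 Pfkp probe sets, both dim, differed by -0.09 and 0.06. Pfkm against Pfkl differed by -0.10 ± 0.11 (exact permutation p = 0.400, adjusted 0.458), Phka1 against Phka2 by -0.20 ± 0.13 (0.154, adjusted 0.205) and Phkg1 against Phkg2 by -0.02 ± 0.08 (0.823, adjusted 0.823).

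**Figure D3:**
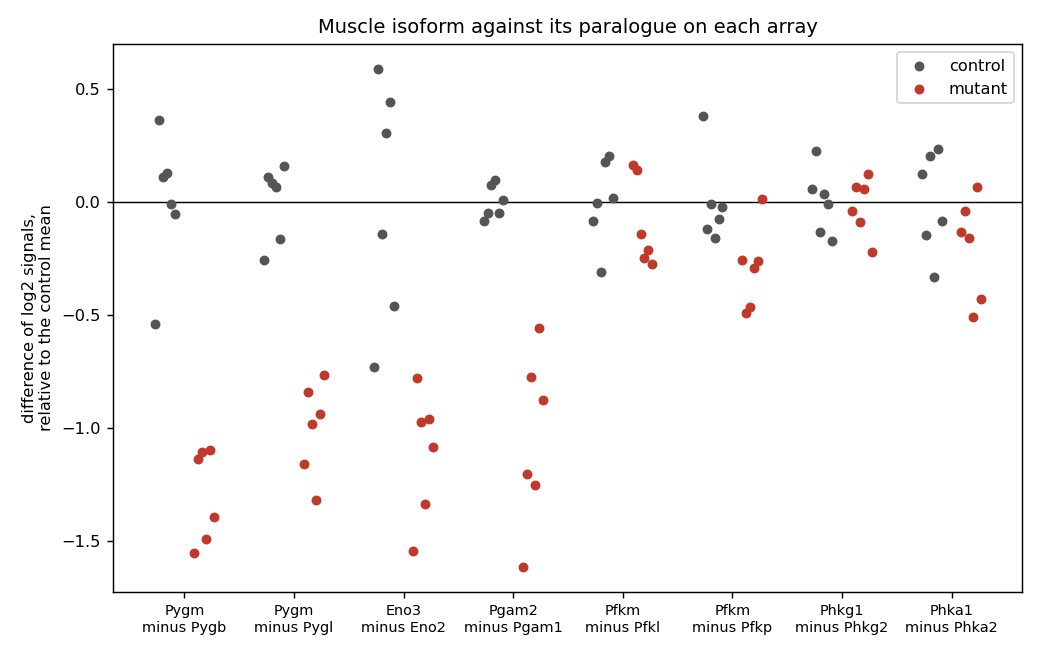
Log2 signal of each muscle isoform minus that of its paralogue on each array (points), relative to the control mean of the pair; grey marks controls and red mutants. The Pygm, Eno3 and Pgam2 pairs lie below every control in all mutants, from -0.56 to -1.62, while the Pfkm, Phkg1 and Phka1 pairs overlap.

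Markers of skeletal muscle fell as well. Of 22 skeletal muscle genes (contractile proteins such as Myl4 and Tnnc1, which fell by 0.66 and 0.58) 21 fell and none rose, at the unadjusted p too, with a median of -0.67, and none lay under the median of all probe sets. Their mean relative to controls ran from -0.33 to 0.20 on control arrays and from -0.96 to -0.55 on mutant arrays. The lowest control was control 1, which was also lowest of the controls for Pygm (8.31), Pgam2 (11.91) and Eno3 (10.88). Within each group Pygm was set against the muscle mean, with r = 0.92 over the 6 mutants (Spearman's rho 0.89, exact permutation p = 0.0153 and 0.0333) and r = 0.92 over the 6 controls (rho 0.83, exact permutation p = 0.0181 and 0.0583). Over the 6 relations computed, the adjusted permutation p was 0.0528 for these r and 0.175 for these rho. Without the 2 arrays farthest from the median, r was 0.79 in mutants and -0.08 in controls, so the relation in controls rests on controls 1 and 2. For Pgam2 and Eno3, r was 0.73 and 0.69 in mutants (exact permutation p = 0.101 and 0.0972, both 0.122 adjusted; rho 0.66 and 0.77, p = 0.175 and 0.103, adjusted 0.210 and 0.204), and 0.22 and 0.54 without mutants 1 and 4. In controls r was 0.51 and 0.91 (exact permutation p = 0.286 and 0.0264, adjusted 0.286 and 0.0528; rho -0.09 and 0.71, p = 0.919 and 0.136, adjusted 0.919 and 0.204), and -0.97 and 0.39 without controls 1 and 2. The part of the muscle markers in the falls was not tested.

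**Figure D4:**
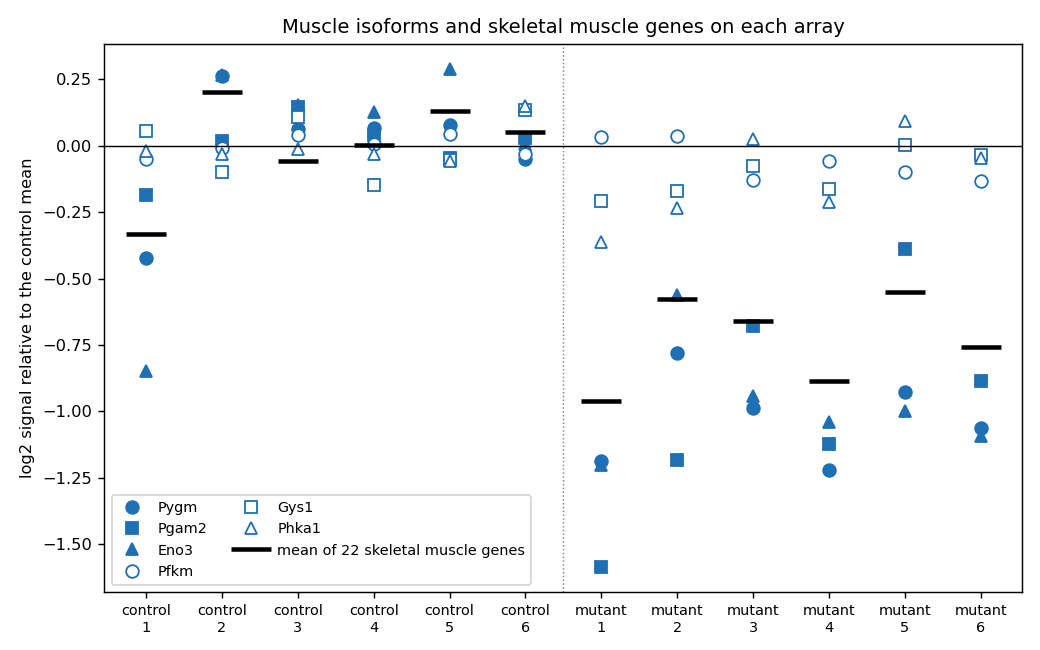
Log2 signal of 6 muscle isoforms relative to their control means on each array; filled symbols are Pygm, Pgam2 and Eno3, open symbols Pfkm, Gys1 and Phka1, and the black bar is the mean of 22 skeletal muscle genes. On the mutant arrays the filled symbols lie from -1.59 to -0.39 and the open symbols from -0.36 to 0.09.

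Markers of several other tissues rose as well, though not in every list. Of 13 neuron markers 10 rose, Snap25 and Tubb3 by 1.51 and 0.89, and their mean relative to controls was 0.25 to 1.05 on mutant arrays against -0.12 to 0.15 on control arrays; 1 of the 13 lay under the median of all probe sets. Of 12 mesenchyme markers 7 rose and 2 fell (0.10 to 0.35 on mutants, -0.10 to 0.06 on controls), of 9 cartilage markers 5 rose (0.27 to 0.49, -0.15 to 0.12), of 10 oral epithelium markers 4 rose (0.11 to 0.43, -0.21 to 0.13), and of 6 glial markers 3 rose and 1 fell (0.11 to 0.48, -0.10 to 0.09). Of 8 endothelial markers 2 rose (0.0009 to 0.22 on mutants, -0.08 to 0.08 on controls). Of 9 macrophage markers 1 rose (0.04 to 0.27, -0.08 to 0.08). None of 9 red cell markers passed with limma, and 1 was lower at an unadjusted p below 0.05. The part of these tissues in the rises of Pygb, Slc2a1 and Aldoc was not tested. Without mutants 1 and 2, none of the 35 members rose by limma's adjusted p and 5 fell, where 379 and 496 of all 18193 genes did. At an unadjusted p below 0.05, 4 members were higher. The share of all genes at that threshold was not computed in this setting.

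The rest of the pathway was read from a list of 62 further genes, of which 56 were measured. Of these 6 fell and 3 rose, with a median of -0.03, shares of 10.7% and 5.36% beside 4.8% and 6.3% of all genes. Pgm5, a phosphoglucomutase relative without known enzyme activity that sits at muscle attachment sites, fell most, from 10.75 ± 0.12 to 10.17 ± 0.28 (-0.59, adjusted p = 0.00395). Ppp1r3d, which targets protein phosphatase 1 to glycogen, fell by 0.45 (adjusted p = 0.00587). Stbd1, a glycogen-binding protein, fell by 0.43 (0.0150), and Slc2a5, a fructose transporter, by 0.26 (0.0220). Slc16a7, a monocarboxylate transporter, rose from 6.26 ± 0.12 to 6.72 ± 0.21 (0.47, adjusted p = 0.00444), and Pfkfb2, which makes the activator of phosphofructokinase, by 0.36 (0.0132). The remaining passers, named after their values were seen, were Gyg, the glycogenin primer (-0.15), Mpc1, of the mitochondrial pyruvate carrier (-0.15), and Ppp1r3b, another glycogen-targeting subunit (0.48). Without mutants 1 and 2 the count was 2 lower and 1 higher, where 496 and 379 of all genes were. Without control 3, mutant 4 and mutant 6 it was 0 lower and 1 higher by limma's adjusted p, where 396 and 440 of all genes were. At an unadjusted p below 0.05 that last setting had 8 lower and 5 higher, and the share of all genes at that threshold was not computed. Without mutant 1 alone 3 were lower.

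Many glycolytic genes are targets of the hypoxia-inducible factors, so a list of 23 hypoxia response genes was read beside them. Of the 22 measured, 2 rose and 1 fell, with a median of 0.03. These shares, 9.09% and 4.55%, were near those of all genes (6.3% and 4.8%). At an unadjusted p below 0.05 there were 7 higher and 2 lower, beside 2676 and 1833 of all 18193 genes. At this threshold a larger share of the list than of all genes was higher. Ddit4, a stress-induced inhibitor of mTORC1, rose from 10.89 ± 0.07 to 11.21 ± 0.13 (0.33, adjusted p = 0.00371) and Vhl, which marks the factors for breakdown, by 0.18 (0.0186). Stc2, a secreted glycoprotein, fell by 0.24 (0.0372). The Stc2 call was lost when any of controls 1 to 3 or mutants 1, 2, 4, 5 or 6 was left out. Without mutants 1 and 2, or without control 3, mutant 4 and mutant 6, only 1 of the 22 rose by limma's adjusted p. Of all 18193 genes 379 and 440 rose in these settings. The rises of Ddit4 and Vhl therefore did not both keep their call there. Hif1a itself read 11.99 ± 0.13 and 12.14 ± 0.08 (0.15, adjusted p = 0.133) and is named after its value was seen.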

How the data were processed

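Tongue RNA of 6 control and 6 mutant embryo samples was measured on 1 array each. The authors deposited log2 signals per probe set from RMA, as the submitters' processing notes name it. The software and log base are not given in those sources, and base 2 was taken from the range of 2.57 to 15.09. RMA makes the arrays' distributions alike, which hides a change common to most genes, and it compresses differences of dim probe sets. Precision is limited by how many arrays there are.

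Of 45101 probe sets, 64 were controls and not tested, and 34945 had 1 symbol in the GEO platform annotation, 932 several and 9160 none. Each of 18193 genes was its brightest probe set over 12 arrays; 17 of the 35 measured members had several. The 2 genotypes were fitted by limma (version 3.58.1, under R 4.3.3; its moderated 2-sided test, with genotype the sole term), with 95% confidence intervals not adjusted for the number of genes. On simulated data the fit recovered 37.3% of changes of 0.25, 83.6% of 0.5 and 97.0% of 1 log2 unit. These changes were given to 67, 67 and 66 of 18193 genes, in that order. Of its calls there, 7.64% were false. Recovery with as large a share of changed genes as passed in the measured data (11.1%) was not tested. Small differences that did not pass can have been missed. Isoform pairs were compared by exact permutation over samples. Where nothing says samples came from separate litters, p values measure the spread between these samples. The members and lists were chosen with earlier results of these data known. All measured members are given, with up to 6 passing genes of each further list by smallest p. Alternatives were 2 scalings, averaged probe sets per gene, no dim probe sets, 2 variance models, the replicate number as a block, and arrays left out. Promoter sequences are RefSeq's (GRCm38.p6). Protein sequences were not used here.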

Additional observations from a re-analysis of the deposited data

Results flagged for a closer look

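Single arrays stood apart from the other 5 of their group in 8 of 86 groups of 6 looked at (35 members and 8 isoform pairs in each genotype), where chance gives about 1 in 20. In each, the gap to the nearest array was large for the group's range by Dixon's 95% criterion. Control 1 was low for Eno3, at 10.88 with the next control at 11.73, and low for Pfkp, at 6.81 with the next at 7.23. It was accordingly high for Pfkm minus Pfkp, at 0.38 relative to the control mean with the next at -0.01. Control 3 was low for Gbe1 (7.52, next 7.85) and high for Tpi1 (13.74, next 13.53). Control 6 was high for Phka1 (8.15, next 7.98). Mutant 6 was low for Pygl (7.94, next 8.21) and mutant 4 for the dim Fbp2 (5.15, next 5.52).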

How the results depend on the processing

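Pygm, Pgam2, Eno3 and Slc2a4 kept their direction and their call under all 22 alternatives, with adjusted p up to 0.00690, 0.0289, 0.0477 and 0.0202 in that order, and Pdk4 under all 21 that tested it (up to 0.0259). No member or pair that was called in either fit changed sign. Members lower numbered 5 to 6 with single arrays left out (muscle isoforms 3 each time, other isoforms 2 to 3). Members higher, all of them other isoforms, numbered 1 to 3 with single arrays left out, 0 without mutants 1 and 2 (4 at an unadjusted p below 0.05), and 1 without control 3, mutant 4 and mutant 6. Genes lower numbered 665 to 899 and genes higher 733 to 1209 with single arrays left out, 496 and 379 without mutants 1 and 2, and 396 and 440 without control 3, mutant 4 and mutant 6. Other pathway genes lower numbered 3 to 7 with single arrays left out, 2 without mutants 1 and 2 and 0 without those 3 arrays (8 at an unadjusted p below 0.05); other pathway genes higher numbered 2 to 3, 1 and 1. Hypoxia response genes lower numbered 0 to 1 with single arrays left out, 0 in both larger exclusions (2 and 1 at an unadjusted p below 0.05), and 2 with quantile normalisation, without dim probe sets or with a trended and robust variance. Hypoxia response genes higher numbered 2 with each single array left out, and 1 in both larger exclusions, when probe sets of a gene were averaged, and with the replicate block. With the replicate block, isoform pairs were tested by exact permutation of signs within 6 numbered pairs. The values were unchanged by construction at -1.30, -1.003, -1.11, -1.05 and -0.29, and the adjusted p was 0.0625 for Pygm minus Pygb, Pygm minus Pygl, Eno3 minus Eno2 and Pgam2 minus Pgam1 and 0.0833 for Pfkm minus Pfkp. The design allows no p under 0.03125 before adjustment, so for the pairs at 0.0625 this says nothing about stability. Pfkm minus Pfkp, at 0.0833, did not reach the value of those pairs. In the limma fit the block left 6 members lower and 2 higher, ending the Aldoc call (adjusted p = 0.0868), with 885 genes lower in mutant samples and 1047 genes higher in mutant samples. Deviations of same-numbered samples correlated above 0.1 in 5 of 6 pairs (-0.06 to 0.24 over all), and 7 of 12 samples correlated best with their own number. The labels do not say whether the numbers pair the samples, and what same-numbered samples share was not tested. The main fit left the numbers out, and the values with the replicate block are those given above. Pfkm minus Pfkp ranged from -0.35 to -0.22 with single arrays left out and was -0.25 without mutants 1 and 2 and -0.13 with probe sets averaged. With single arrays left out, the pairs of Pygm, Eno3 and Pgam2 ranged from -1.41 to -0.93. The cause of these changes was not tested, nor was the part of the smaller number of arrays.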
